A study of Rattus norvegicus with 19 samples.

Results

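The 10 genes described here belong to the circadian clock or are driven directly by it: *Per1*, *Per2*, *Per3*, *Dbp*, *Tef*, *Nr1d1*, *Nr1d2*, *Arntl*, *Ciart* and *Bhlhe41*. They were chosen by gene symbol from the 32623 genes of the count files, and all 10 were among the 15440 genes that passed a filter on low counts and were tested. RNA sequencing was performed on the hippocampus of 19 adult male Sprague Dawley rats, an outbred strain, with 1 library per animal. The groups were 6 wild-type littermates (wt), 4 Del/+ animals with one copy of a segment of chromosome 1 deleted, the rat counterpart of human 16p11.2, 5 Dup/+ animals with one copy of it duplicated, and 4 Del/Dup animals that carried the deletion on one copy of the chromosome and the duplication on the other. Both rearrangements were engineered with CRISPR/Cas9 and are present in every cell, so nothing in these groups is specific to the hippocampus or to the clock. The hour at which the tissue was taken is not given in the sources used here, nor is the age of these animals in weeks, so time of day and genotype cannot be told apart by the labels.

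In mammals, the clock is a loop of transcription that takes about a day to complete. The proteins CLOCK and BMAL1 (the product of *Arntl*) bind as a pair to a short sequence named the E-box and switch on the *Per* and *Cry* genes, whose proteins later block the pair. The same pair switches on *Nr1d1* and *Nr1d2*, whose products REV-ERBα and REV-ERBβ repress *Arntl* through the ROR element, and *Dbp*, whose product binds the D-box. For this reason the *Arntl* transcript is known to peak in the opposite part of the day to *Dbp*, *Nr1d1* and the *Per* genes. The hippocampus runs its own clock, kept in step by the suprachiasmatic nucleus of the hypothalamus.

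Of the 10 genes, 6 had a match to such an element close to an annotated start, and the stretches below were chosen to show those matches. RefSeq windows of 300 bases (250 before and 50 after the annotated start, rat assembly GRCr8, which differs from the assembly used to count the reads) were matched for all 10 genes, 9 by symbol and *Arntl* by its newer name *Bmal1*, with 11 windows in all since *Nr1d1* had an additional start. Both strands were searched for the E-box (CACGTG), the D-box (TTATGTAA or TTACGTAA), the ROR element (TAGGTCA or TGGGTCA) and the cAMP element (TGACGTCA), and the matches in the 11 windows did not overlap. Only bases before the start are printed, from 5′ to 3′ on the strand of the gene, with each match in capitals.
Ciart, GRCr8 chr2:186112247-186112496, strand -: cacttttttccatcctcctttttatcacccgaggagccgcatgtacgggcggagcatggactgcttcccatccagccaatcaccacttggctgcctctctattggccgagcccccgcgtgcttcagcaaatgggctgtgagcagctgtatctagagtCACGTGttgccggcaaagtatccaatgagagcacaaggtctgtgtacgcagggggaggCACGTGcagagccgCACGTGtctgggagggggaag
Bhlhe41, GRCr8 chr4:180569356-180569605, strand -: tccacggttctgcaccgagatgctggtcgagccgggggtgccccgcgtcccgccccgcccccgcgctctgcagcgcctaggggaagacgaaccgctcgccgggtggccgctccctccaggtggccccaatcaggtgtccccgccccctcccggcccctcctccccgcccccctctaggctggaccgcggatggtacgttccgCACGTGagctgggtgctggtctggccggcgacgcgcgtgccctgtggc
Per2, GRCr8 chr9:99496994-99497243, strand -: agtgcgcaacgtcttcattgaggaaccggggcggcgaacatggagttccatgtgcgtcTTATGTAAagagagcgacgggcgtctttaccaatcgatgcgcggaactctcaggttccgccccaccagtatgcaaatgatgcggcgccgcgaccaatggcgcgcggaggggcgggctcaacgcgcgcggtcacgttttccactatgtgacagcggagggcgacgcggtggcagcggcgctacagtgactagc
Arntl, GRCr8 chr1:176766078-176766327, strand +: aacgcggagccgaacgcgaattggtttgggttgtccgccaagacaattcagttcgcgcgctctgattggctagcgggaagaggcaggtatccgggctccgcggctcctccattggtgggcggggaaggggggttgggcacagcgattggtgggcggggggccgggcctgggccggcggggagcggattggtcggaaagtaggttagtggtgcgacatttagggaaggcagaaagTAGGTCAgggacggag
Tef, GRCr8 chr7:115206609-115206654, strand +: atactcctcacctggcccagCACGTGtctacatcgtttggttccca
Nr1d1, GRCr8 chr10:84229620-84229665, strand -: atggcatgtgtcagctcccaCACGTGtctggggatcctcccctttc

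The E-box was found in 4 of the 11 windows, those of *Ciart*, *Bhlhe41*, *Tef* and the second start of *Nr1d1*, against 6.42% of the 33469 windows in the table. The *Ciart* window held 3 of them, starting 93, 35 and 21 bases before the start, and 0.0568% of all windows held 3 or more. The only D-box was that of *Per2*, 192 bases before the start (1.01% of all windows held one). The only ROR element was that of *Arntl*, 16 bases before the start, against 6.60% of all windows. The cAMP element was in none of the 11 windows and in 1.83% of all windows. The windows of *Per1*, *Per3*, *Dbp* and *Nr1d2* held none of these letters, which says nothing of sequence outside the windows. A match is a description of the letters in a window and was not tested as a binding site.

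Total counts over genes were 16191192 to 38760645 reads per library, so that even *Ciart*, the member with the fewest reads, had at least 151 in every library. Over 19 genes of the rearranged segment with a mean of at least 5 counts-per-million (CPM), the median level relative to the wt mean lay between 0.471 and 0.528 for the Del/+ libraries, 1.39 and 1.49 for Dup/+, 0.937 and 1.03 for Del/Dup, and 0.963 and 1.02 for wt. The library of wt replicate 5, for which the label fields disagree (the genotype field gives Dup/+), stood at 0.969 and was counted as wt. Over 55% of counted lines were reads aligned to several places in all 4 Del/Dup libraries and in Del/+ replicates 1 to 3, and at most that share in the other 12 libraries, so this share differs between the groups. Markers of neurons, astrocytes, oligodendrocytes and microglia were detected, although *Fibcd1*, 1 of 6 markers of hippocampal neurons, was at 0 in every library. Of 8 hypothalamic markers, 7 were in the files, and *Avp*, *Lhx1* and *Six6* were at 0 in some or all libraries. The summed level of 8 choroid plexus markers had its lowest and highest values at 3.96 and 35.4 CPM in wt, 5.58 and 1276 CPM in Del/+, 6.89 and 413 CPM in Dup/+, and 42.5 and 1223 CPM in Del/Dup. For 3 blood markers the sum was 180 to 243 CPM in Dup/+. It was 117 to 159 CPM in wt, 103 to 162 CPM in Del/+ and 132 to 164 CPM in Del/Dup. The part of these sums in the clock gene levels was not tested.

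None of the 10 genes passed the test in any comparison between the genotypes. edgeR's quasi-likelihood test was fitted across all tested genes, with a call at a Benjamini-Hochberg adjusted p under 0.05, and it called 0.771% of all tested genes between Del/+ and wt, 0.272% between Dup/+ and wt, 0.0907% between Del/Dup and wt, 0.784% between Del/+ and Dup/+, and 0.823% for any difference among the 4 groups. At an unadjusted p under 0.05 it found 1, 4, 3, 2 and 2 of the 10 genes in these comparisons, against 18.4%, 8.94%, 16.2%, 13.5% and 18.9% of all tested genes. These counts depended on the libraries and the fit. Without wt replicate 1 they were 0, 2, 1, 4 and 2. Between Del/+ and wt the count was 0 without Del/+ replicate 2 or 4, and 2 without Del/+ replicate 1 or 3. The Dup/+ count was also 2 without Dup/+ replicate 3 or wt replicate 5. The Del/Dup count was 1 without Del/Dup replicate 4, and 0 with *Ttr* as a covariate or a term for the share of multi-mapped reads. With DESeq2, 0 of the 10 were called in the 3 comparisons against wt and 1, *Per2*, was called in the remaining comparisons, in which DESeq2 called 1.08% and 2.88% of all genes it tested. The fold changes were small: the largest for any of the 10 genes was -0.32 on the log2 scale, for *Dbp* between Del/+ and Dup/+. The median log2 fold change of the 10 genes was 0.01 in Del/+, 0.04 in Dup/+ and 0.10 in Del/Dup relative to wt, beside 0.00 in each case over all tested genes. These are bulk libraries, in which fewer cells of a type and less RNA per cell cannot be told apart.

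**Figure D1:**
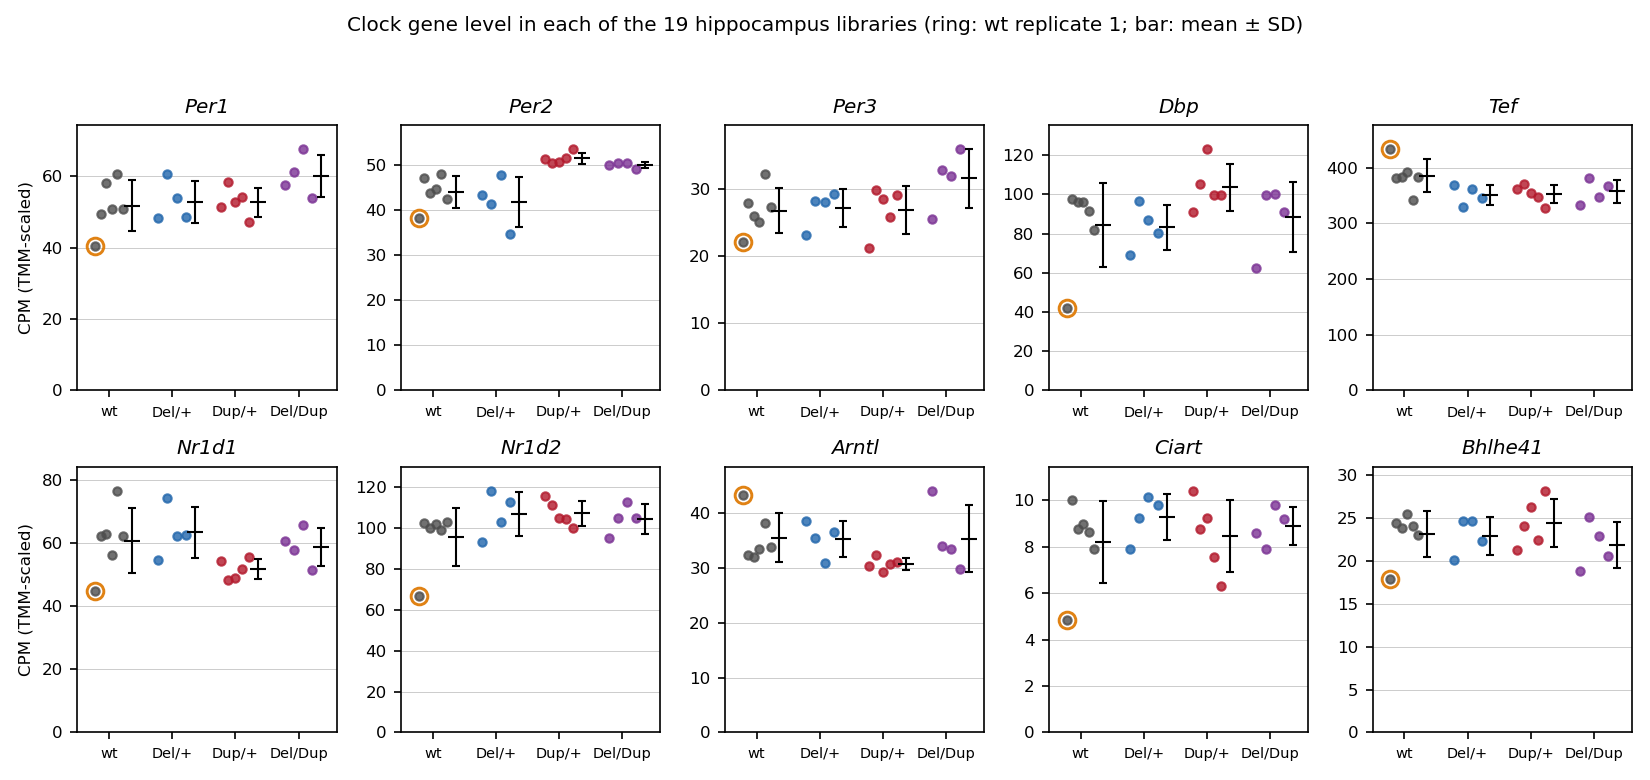
Level of each of the 10 clock genes in CPM (vertical axis, from 0, 1 panel per gene) in the 19 libraries by genotype group, 1 point per library, with the group mean ± SD as a bar and wt replicate 1 ringed. *Per2* is the gene for which all Dup/+ and Del/Dup points lie above all wt points, and the ringed library is the lowest wt point for 8 genes and the highest for *Tef* and *Arntl*.

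*Per1*, *Per2* and *Per3* encode the PERIOD proteins, which enter the nucleus and hold back CLOCK and BMAL1. *Per2* came closest to a difference between the genotypes. In wt it ranged from 38.3 to 48.2 CPM with a median of 44.3 (n = 6), and in Del/+ replicates 1 to 4 it stood at 43.5, 41.4, 47.9 and 34.7 CPM. In Dup/+ replicates 1 to 5 it stood at 51.3, 50.5, 50.8, 51.5 and 53.6 CPM, and in Del/Dup replicates 2 to 5 at 50.0, 50.4, 50.6 and 49.1 CPM. Thus every Dup/+ and every Del/Dup library lay above every wt library, while Del/+ and wt overlapped. Every Dup/+ library lay above every Del/+ library, and so did every Del/Dup library, a comparison that was not tested. The lowest Del/Dup library (49.1 CPM) stood close to the highest wt library (48.2 CPM). With all libraries used, no other of the 10 genes had groups that did not overlap, and the same was found for 1.17% of tested genes between Dup/+ and wt, 2.56% between Del/Dup and wt, 5.30% between Del/+ and Dup/+, and 4.94% between Del/+ and wt, where it held for 0 of the 10. Other members did not overlap in some cases with 1 library of the groups compared left out, an alternative chosen after seeing the data. These were *Tef*, *Nr1d1*, *Nr1d2*, *Dbp* and *Arntl*, in cases where 1.47% to 9.55% of all tested genes did not overlap. Leaving out a library can only narrow a range, so the separation of *Per2* could not be lost in this way. The log2 fold change of *Per2* between Del/+ and Dup/+ was -0.30 ± 0.07 (SE; edgeR adjusted p = 0.0529), just short of a call, and the test for any difference among the 4 groups gave an edgeR adjusted p of 0.0672. Relative to wt, the Dup/+ value was 0.23 ± 0.06 (edgeR adjusted p = 0.258). The Del/Dup value was 0.18 ± 0.07 (edgeR adjusted p = 0.214), and the Del/+ value was -0.08 ± 0.07 (edgeR adjusted p = 0.595). The Del/+ value was 0.0112 without Del/+ replicate 4, and the Del/Dup value was -0.17 with a term for the share of multi-mapped reads, which is estimated from the difference between that library and the other Del/+ libraries.

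The direction of the *Per2* difference between Del/+ and Dup/+ was the same in every fit, and whether it passed the threshold varied. Over the 19 fits that each left out 1 library, the log2 fold change ran from -0.37 to -0.21 and the edgeR adjusted p from 0.0131 to 0.174. The adjusted p was under 0.05 in 4 of them, without Del/+ replicate 3 (0.0131), wt replicate 1 (0.0367), Del/Dup replicate 2 (0.0469) or wt replicate 5 (0.0479). It was highest without Del/+ replicate 4 (0.174), Del/+ replicate 2 (0.169), Dup/+ replicate 5 (0.117) and Dup/+ replicate 4 (0.103). Del/+ replicate 4, the lowest *Per2* level of all 19 libraries, set the size most: without it the log2 fold change was -0.21 ± 0.06. DESeq2 gave -0.30 ± 0.08 with an adjusted p of 0.0102. Del/+ was the only group with libraries on both sides of 55% multi-mapped reads, and replicate 4 was its only library at or under that share. Among the 12 libraries at or under it, the log2 fold change was -0.57 ± 0.10 (edgeR adjusted p = 0.0123), a comparison of that 1 Del/+ library with Dup/+ in which its spread was taken from the other groups. A term for the share in the fit of all libraries (-0.57 ± 0.09) rests on the same library and adds nothing to it.

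*Per1* stood at 40.6 to 60.8 CPM in wt (median 50.9, n = 6), at 48.3, 60.6, 53.9 and 48.6 CPM in the 4 Del/+ libraries, at 51.5, 58.4, 52.8, 54.2 and 47.1 CPM in the 5 Dup/+ libraries, and at 57.7, 61.2, 67.7 and 54.0 CPM in the 4 Del/Dup libraries. Its mean was highest in Del/Dup, at 60.1 ± 5.81 CPM (SD, n = 4), and the other groups lay between 51.8 and 52.8 CPM. *Per3* had the same order, with 31.5 ± 4.33 CPM in Del/Dup (n = 4) against means of 26.7 CPM in wt, 27.1 CPM in Del/+ and 26.9 CPM in Dup/+. For both genes Del/Dup overlapped every other group. Relative to wt, the log2 fold change in Del/Dup was 0.22 ± 0.09 for *Per1* (edgeR adjusted p = 0.264) and 0.24 ± 0.11 for *Per3* (adjusted p = 0.277). In Del/+ and Dup/+, the values of both genes relative to wt lay within 0.03 of 0 on the log2 scale.

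*Dbp* and *Tef* encode transcription factors of the PAR bZIP family, which bind the D-box and carry the rhythm on to genes outside the loop. *Dbp* varied most among the members. It ranged from 42.0 to 97.9 CPM in wt (median 93.8, n = 6) and stood at 69.2, 96.7, 86.7 and 80.3 CPM in Del/+, at 90.9, 105, 123, 99.8 and 99.6 CPM in Dup/+, and at 62.4, 99.8, 100.1 and 91.3 CPM in Del/Dup. The means were 84.2 ± 21.5 CPM in wt (SD, n = 6), 83.3 ± 11.5 in Del/+ (n = 4), 104 ± 12.0 in Dup/+ (n = 5) and 88.4 ± 17.8 in Del/Dup (n = 4), and all groups overlapped. The highest mean, that of Dup/+, gave a log2 fold change of 0.30 ± 0.17 relative to wt (edgeR adjusted p = 0.611). In Del/+ and Del/Dup, the values were -0.02 ± 0.18 and 0.07 ± 0.18. The library of wt replicate 1 (42.0 CPM) set these values in part: without it they were 0.16 ± 0.11 in Dup/+, -0.15 ± 0.12 in Del/+ and -0.06 ± 0.12 in Del/Dup (edgeR adjusted p of 0.554 to 0.849).

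*Tef* had the narrowest relative range, 328 to 433 CPM over the 19 libraries, a ratio of 1.32 where that of *Dbp* was 2.93. Its mean was highest in wt, at 386 ± 28.9 CPM (SD, n = 6), and stood at 351 ± 17.4 in Del/+ (n = 4), 352 ± 15.8 in Dup/+ (n = 5) and 357 ± 21.0 in Del/Dup (n = 4). Each carrier group overlapped wt through wt replicate 5 alone, at 343 CPM, the library whose labels disagree. The other 5 wt libraries (381 to 433 CPM) lay above every Del/+ and Dup/+ library (at most 370 CPM), and above every Del/Dup library by less than the rounding of these values (both at 381 CPM). Without wt replicate 5, 6.66% of all tested genes did not overlap between Del/+ and wt, 1.87% between Dup/+ and wt and 5.63% between Del/Dup and wt. The log2 fold change relative to wt was -0.14 ± 0.06 for Del/+ (edgeR adjusted p = 0.195), -0.13 ± 0.05 for Dup/+ (adjusted p = 0.477) and -0.11 ± 0.06 for Del/Dup (adjusted p = 0.321). Without wt replicate 5 the values were -0.17, -0.16 and -0.14 (edgeR adjusted p of 0.111, 0.292 and 0.157). The 3 comparisons share the wt libraries, so their common sign is not 3 separate observations.

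*Nr1d1* and *Nr1d2* encode the nuclear receptors that repress *Arntl*. *Nr1d1* stood at 44.8 to 76.4 CPM in wt (median 62.2, n = 6), at 54.6, 74.2, 62.2 and 62.5 CPM in Del/+, at 54.2, 48.2, 49.1, 51.9 and 55.7 CPM in Dup/+ and at 60.5, 57.9, 65.8 and 51.3 CPM in Del/Dup. The Dup/+ libraries were thus among the lowest, and the ranges of all groups overlapped. Between Dup/+ and wt the overlap came from wt replicate 1 alone (44.8 CPM), since the other 5 wt libraries started at 56.0 CPM, and 1.53% of all tested genes did not overlap without it. The log2 fold change was -0.23 ± 0.10 in Dup/+ relative to wt (edgeR adjusted p = 0.522; -0.30 ± 0.09 without wt replicate 1, adjusted p = 0.359) and 0.29 ± 0.11 between Del/+ and Dup/+ (adjusted p = 0.256). *Nr1d2* had a lower mean in wt, at 95.6 ± 14.2 CPM (SD, n = 6), than in Del/+ (107 ± 10.9, n = 4), Dup/+ (107 ± 6.19, n = 5) or Del/Dup (104 ± 7.31, n = 4). Its median in wt, 101 CPM, lay within the range of each carrier group, and no log2 fold change relative to wt exceeded 0.17 (edgeR adjusted p of 0.374 to 0.595). Without wt replicate 1 the largest was 0.08.

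*Arntl* encodes BMAL1, the partner of CLOCK. It stood at 32.0 to 43.4 CPM in wt (median 33.7, n = 6), at 38.5, 35.5, 30.8 and 36.6 CPM in Del/+, at 30.3, 32.3, 29.3, 30.7 and 31.1 CPM in Dup/+, and at 44.0, 34.0, 33.5 and 29.9 CPM in Del/Dup. The Dup/+ libraries were the lowest as a group and the closest to each other, but their highest value, 32.3 CPM, overlapped wt, and the difference from wt was -0.21 ± 0.09 on the log2 scale (edgeR adjusted p = 0.503). In Del/+ and Del/Dup, the values were -0.01 ± 0.09 and -0.01 ± 0.10. Both *Dbp* and *Arntl* lie on chromosome 1 with the rearranged segment but outside it, with 827 and 134 protein-coding genes of the GRCr8 annotation between.

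*Ciart* encodes an inhibitor of CLOCK and BMAL1, and *Bhlhe41* (DEC2) a repressor that binds the E-box. *Ciart* stood at 4.84 to 10.0 CPM in wt (median 8.72, n = 6), while the Del/+ libraries spanned 7.89 to 10.2, the Dup/+ libraries 6.33 to 10.4 and the Del/Dup libraries 7.90 to 9.82. *Bhlhe41* stood at 17.9 to 25.5 CPM in wt (median 24.0, n = 6), while the Del/+ libraries spanned 20.1 to 24.7, the Dup/+ libraries 21.3 to 28.2 and the Del/Dup libraries 18.9 to 25.1. For both genes the groups overlapped throughout. The log2 fold changes relative to wt ran from 0.05 to 0.18 for *Ciart* and from -0.08 to 0.08 for *Bhlhe41*, with edgeR adjusted p of 0.561 to 0.973 over both genes. Without wt replicate 1, those of *Ciart* ran from -0.07 to 0.07.

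**Figure D2:**
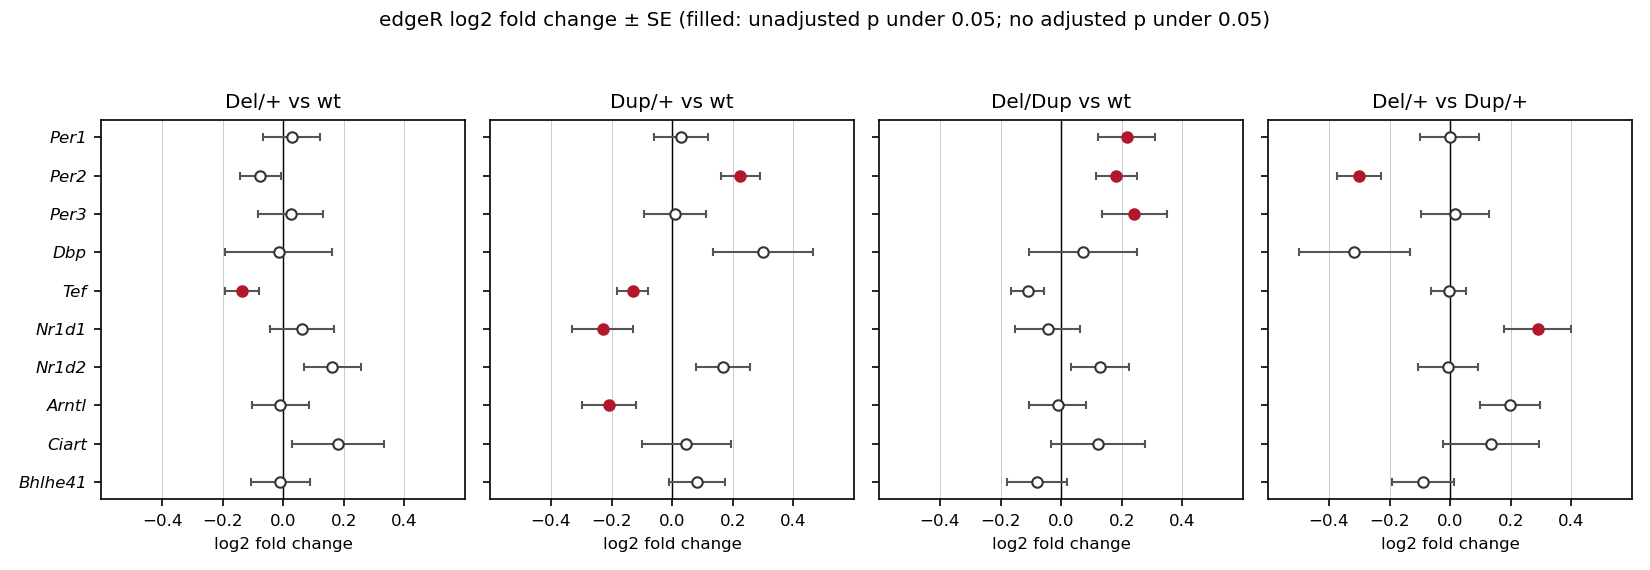
Log2 fold change ± SE (horizontal axis) of the 10 clock genes (vertical axis) in the 4 pairwise comparisons, 1 panel each, with points filled where the unadjusted edgeR p was under 0.05. Every point lies between -0.32 and 0.30, and none had an adjusted p under 0.05.

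A list of 23 other clock genes (partners, kinases, ligases and further outputs of the loop) was treated in the same way. All 23 were in the files and 21 passed the filter and were tested. The only call among them was *Rora*, which encodes a nuclear receptor that activates *Arntl* through the ROR element. It was higher in Del/+, at 20.8 ± 2.76 CPM (SD, n = 4), than in Dup/+, at 14.3 ± 1.30 CPM (n = 5), a log2 difference of 0.53 ± 0.11 (edgeR adjusted p = 0.0204), so that 1 of 21 genes was called where 0.784% of all tested genes were. The Del/+ libraries (18.1 to 23.6 CPM) lay above the Dup/+ libraries (12.9 to 16.0 CPM) and above the wt libraries (14.0 to 17.2 CPM). The wt mean was 16.1 ± 1.30 CPM (n = 6). Between Del/+ and wt the log2 fold change was 0.37 ± 0.10 (edgeR adjusted p = 0.0830), which was not called. Over all tested genes, 5.30% did not overlap between Del/+ and Dup/+ and 4.94% between Del/+ and wt. Del/Dup stood at 17.4 ± 3.28 CPM (n = 4), and its range, 13.8 to 21.4 CPM, overlapped all other groups. The call was lost without Del/+ replicate 2 (0.49, edgeR adjusted p = 0.0928), Del/+ replicate 3 (0.47, adjusted p = 0.0657), Dup/+ replicate 2 (0.50, adjusted p = 0.0714) or Dup/+ replicate 3 (0.50, adjusted p = 0.0600). Among the 12 libraries at or under 55% of reads aligned to several places, where 1 Del/+ library was left, the difference was 0.34 (adjusted p = 0.233), and with a term for that share it was 0.34 (adjusted p = 0.448). In each of the 3 comparisons against wt and for any difference among the 4 groups, edgeR called 0 of the 21. At an unadjusted p under 0.05 it found 4 of the 21 in Del/+, 2 in Dup/+ and 3 in Del/Dup relative to wt, 5 between Del/+ and Dup/+ and 2 for any difference, against 18.4%, 8.94%, 16.2%, 13.5% and 18.9% of all tested genes.

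The members varied between animals of the same genotype more than most genes did. Over 10899 tested genes with a mean of at least 5 CPM, the median standard deviation within groups was 0.10 on the log2 scale, and 9 of the 10 members lay above it, beside 10 of the 20 other clock genes that reached this level. The standard deviation was 0.33 for *Dbp*, higher than that of 97.9% of these genes, and 0.27 for *Ciart*, higher than that of 96.3%. *Per3* (0.19), *Nr1d1* (0.19), *Nr1d2* (0.17), *Bhlhe41* (0.17), *Per1* (0.16) and *Arntl* (0.16) followed, at percentiles from 80.9 to 88.0. Only *Tef*, at 0.09 and the 34.4th percentile, was below the median. These shares describe this list, which holds genes known for a daily rhythm, and no test was made of them.

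The spread was smaller without wt replicate 1, when *Dbp* stood at the 90.8th percentile and *Ciart* at the 87.9th. *Per2* (47.3rd), *Nr1d2* (43.0th) and *Tef* (22.5th) were then below the median, and the other members above it. In wt replicate 1 *Dbp* was at 42.0 CPM, which is -1.14 on the log2 scale from the mean of the other 5 wt libraries. Those lay between 81.8 and 97.9 CPM. *Ciart* was -0.86 from the mean of the other wt libraries, *Nr1d2* -0.60, *Nr1d1* -0.50, *Bhlhe41* -0.43, *Per1* -0.41, *Per3* -0.32 and *Per2* -0.24. *Arntl*, by contrast, was the highest in wt, at 43.4 CPM and 0.35 above the mean of the others, and so was *Tef*, at 433 CPM and 0.20 above. Each of the 10 genes was therefore at an extreme of its group in this library, the lowest for 8 and the highest for 2, while over all tested genes it was the lowest wt library for 16.2% and the highest for 15.5%. The median absolute difference from the mean of the other wt libraries was 0.42 for the 10 genes and 0.10 for all tested genes.

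The library of wt replicate 1 was at an extreme of wt in some other measures and not in others. Its total count, 38760645, was the highest of the series, and 42.2% of its counted lines were reads aligned to several places, where wt ranged from 40.1% to 47.6%. The summed level of 10 immediate-early genes was 267 CPM (wt range 246 to 452), that of 3 astrocyte markers 1798 CPM (1575 to 1977), that of 6 neuronal markers 1307 CPM (1084 to 1419) and that of 8 choroid plexus markers 8.62 CPM (3.96 to 35.4). The sum of 8 glucocorticoid targets was 288 CPM (287 to 330), and their mean log2 CPM, 3.72, was the lowest of the 19 libraries. The sums of the hypothalamic markers, 13.8 CPM, and of the microglial markers, 52.1 CPM, were the lowest in wt, and the neuronal markers *Prox1*, 195 CPM, and *Bcl11b*, 284 CPM, were the highest of the 19 libraries. The part of the marker sums in the clock gene levels was not tested.

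Del/+ replicate 1 had a similar pattern, and Del/Dup replicate 2 had it for some of the genes. In Del/+ replicate 1, *Dbp* (69.2 CPM), *Nr1d2*, *Nr1d1*, *Ciart*, *Bhlhe41*, *Per1* and *Per3* were the lowest of the group and *Arntl* (38.5 CPM) and *Tef* the highest, with *Dbp* at -0.34 and *Arntl* at 0.17 from the mean of the others on the log2 scale. In Del/Dup replicate 2, *Dbp* (62.4 CPM) was -0.63 from the mean of the others and *Arntl* (44.0 CPM) 0.44 above it, the highest *Arntl* level of the series, and *Per3*, *Bhlhe41*, *Nr1d2* and *Tef* were also the lowest of the group. There *Per1*, *Per2*, *Nr1d1* and *Ciart* lay within 0.08 of the mean of the others, and *Tef*, unlike in the other libraries with low *Dbp*, was below it, at -0.13. The median absolute difference from the mean of the other libraries of the group was 0.25 for the 10 genes and 0.11 for all tested genes in Del/+ replicate 1, but 0.15 for both in Del/Dup replicate 2, which was the lowest of its group for 32.5% and the highest for 29.1% of all tested genes. In Del/+ replicate 1 these shares were 24.0% and 27.1%, so that for 4 libraries either extreme is common. At that rate the 6 members at an extreme in Del/Dup replicate 2 do not set it apart. Its mean log2 CPM of the 10 immediate-early genes, 4.98, was the highest of the series, and its *Ttr* level, 10.1 on the log2 CPM scale, was among the highest.

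**Figure D3:**
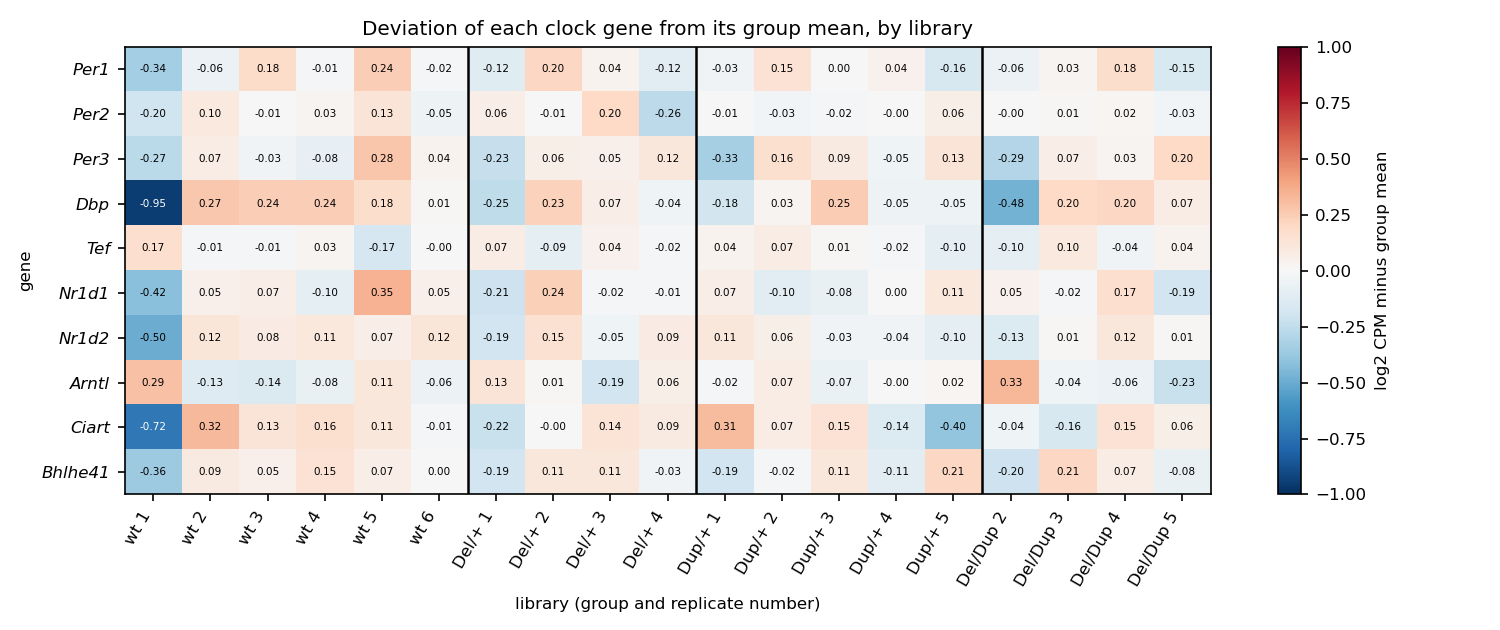
Log2 CPM minus the group mean for each of the 10 clock genes (rows) in each of the 19 libraries (columns, by group and replicate number), as color and as printed value. The column of wt replicate 1 is negative for 8 genes and positive for *Tef* and *Arntl*, with *Dbp* at -0.95, and the *Dbp* and *Arntl* cells have opposite signs in Del/+ replicate 1 and Del/Dup replicate 2.

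To ask which genes moved together between animals, the group means were removed and the 19 deviations of each gene were correlated, with 100000 permutations within groups and adjustment over the 255 pairs of a member with a member or another tested clock gene. Of the 45 pairs of members, 18 had an unadjusted p under 0.05 and 2 an adjusted p under 0.05. *Dbp* and *Bhlhe41* were positively related (r = 0.85, permutation p = 0.000230, adjusted p = 0.0344, rho = 0.68, permutation p = 0.00198, adjusted p = 0.126). *Tef* and *Nr1d1* were inversely related (r = -0.86, permutation p = 0.000270, adjusted p = 0.0344, rho = -0.80, permutation p = 0.000240, adjusted p = 0.0612). With Spearman's rho, 0 of the 45 pairs passed the adjusted threshold and 9 had an unadjusted p under 0.05.

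Both relations kept their sign, with an r of at least 0.70 in size, in the subsets tried. For *Dbp* and *Bhlhe41*, r was 0.76 without wt replicate 1 (permutation p = 0.00213), 0.71 without the 2 libraries farthest from the median of *Dbp* (p = 0.00699), 0.84 in the 12 libraries at or under 55% of reads aligned to several places (exact permutation p = 0.0164) and 0.88 in the 7 libraries over it (exact permutation p = 0.0208). For *Tef* and *Nr1d1*, r was -0.79 without wt replicate 1 (permutation p = 0.00122), -0.70 without the 2 libraries farthest from the median of *Tef* (p = 0.0115), -0.93 in the 12 libraries (exact permutation p = 0.00172) and -0.73 in the 7 (exact permutation p = 0.118). None of these had an adjusted p under 0.05. Over the 19 fits that each left out 1 library, both relations passed the adjusted threshold in 5, 1 of them in 3 and neither in 11, so the calls do not rest on wt replicate 1 alone. With the group means not removed, the pairs called were *Dbp* with *Bhlhe41* (r = 0.82) and *Dbp* with *Arntl* (r = -0.81), and r was -0.48 for *Tef* and *Nr1d1*, which was not called.

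*Dbp* and *Arntl* were inversely related without passing the adjusted threshold. Over all 19, r was -0.76 (permutation p = 0.00674, adjusted p = 0.130) and rho was -0.69 (permutation p = 0.00386, adjusted p = 0.134). It was -0.67 without wt replicate 1 (permutation p = 0.0463) but -0.30 without both wt replicate 1 and Del/Dup replicate 2 (p = 0.356), the 2 libraries farthest from the median of *Dbp*, so the relation rests on those libraries. Leaving out the extremes of a gene also narrows the range over which r is computed. Within the 12 libraries at or under 55%, which hold wt replicate 1, r was -0.83 (exact permutation p = 0.0290), and within the 7 over it, which hold Del/Dup replicate 2, it was -0.77 (exact permutation p = 0.132).

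Among the 8 members other than *Tef* and *Arntl*, a grouping made after the values were seen, all 28 pairs had a positive r, from 0.18 to 0.85 with a median of 0.51. *Arntl* was negatively related to the other 9 members (median r = -0.48), and so was *Tef* (median r = -0.37). Without wt replicate 1, *Arntl* was negatively related to 7 of the 9 (median r = -0.34) and *Tef* to 6 of the 9 (median r = -0.05). Then 23 of the 28 pairs had a positive r, with a median of 0.22 and a range from -0.40 to 0.76. The number of the 45 pairs with an unadjusted p under 0.05 was then 7 in place of 18, and 0 had an adjusted p under 0.05. The r of *Per2* with the other 9 members was at most 0.45 in size over all libraries, but it varied with the libraries used: with *Tef* it was -0.86 in the 12 libraries at or under 55% (exact permutation p = 0.00222) and 0.38 in the 7 over it, and with *Nr1d2* it was -0.40 without wt replicate 1. The pairs share the same 19 libraries and are not independent of each other.

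**Figure D4:**
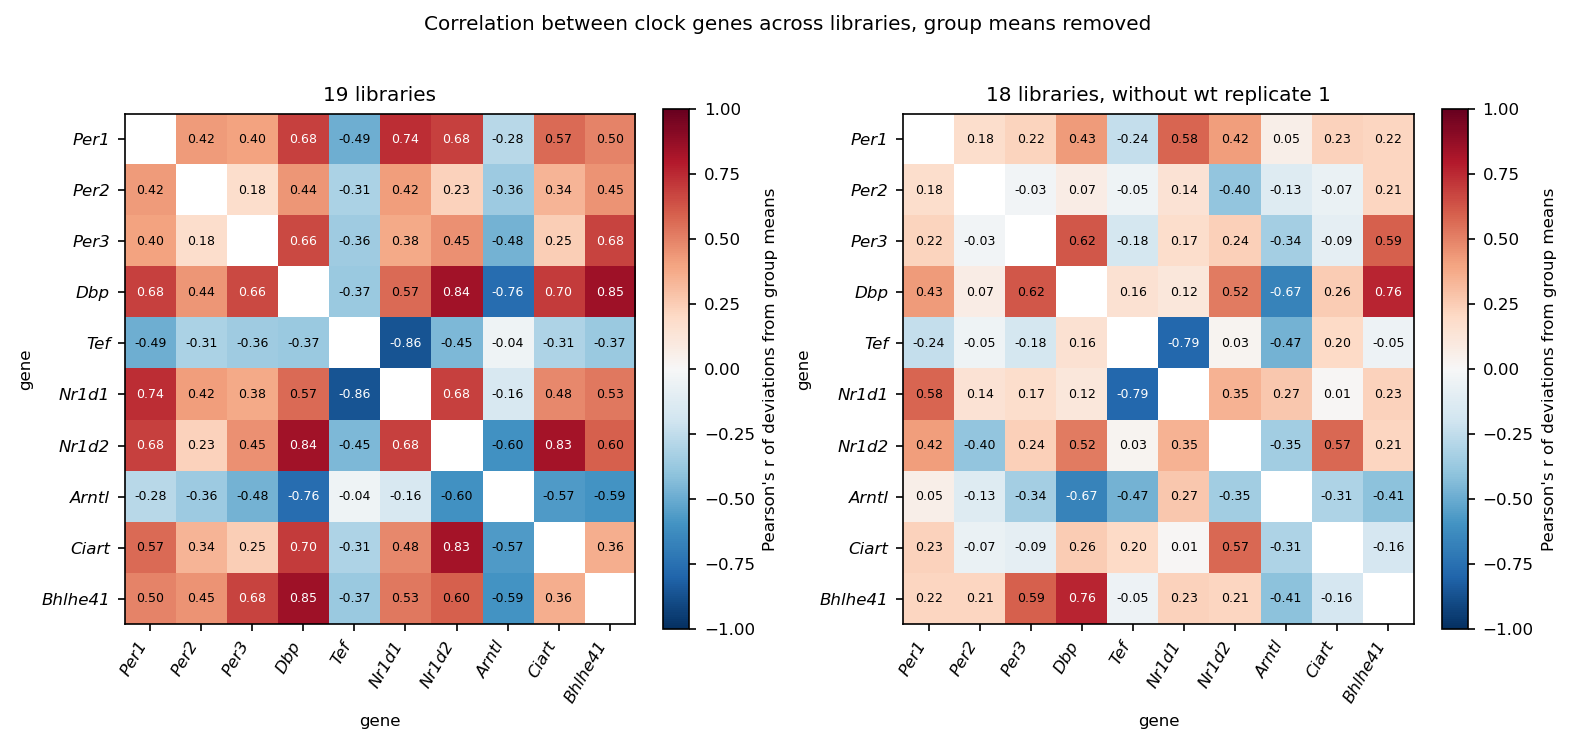
Pearson's r between the 10 clock genes over deviations from group means, for all 19 libraries (left) and the 18 without wt replicate 1 (right), as color and as printed value. The *Dbp* and *Bhlhe41* cell is 0.85 on the left and 0.76 on the right, the *Tef* and *Nr1d1* cell is -0.86 and -0.79, and the median over the 28 pairs without *Tef* and *Arntl* goes from 0.51 to 0.22.

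Of the 210 pairs of a member with another clock gene, 1 had an adjusted p under 0.05 and 29 an unadjusted p under 0.05. It was that of *Tef* with *Rorb*, which encodes a nuclear receptor of the ROR family (r = -0.75, permutation p = 0.000450, adjusted p = 0.0382, rho = -0.80, permutation p = 0.000540, adjusted p = 0.0654). It was -0.74 without wt replicate 1 (permutation p = 0.00226), -0.74 without the 2 libraries farthest from the median of *Tef* (p = 0.00752), -0.78 within the 12 libraries (exact permutation p = 0.00372) and -0.77 within the 7 (exact permutation p = 0.0486). The pair of *Tef* and *Rorb* was not called in 13 of the 19 fits that each left out 1 library. In 12 of the 19 no pair of this kind was called. None was called with Spearman's rho, with wt replicate 5 counted as Dup/+ or with the group means not removed (r = -0.58 for *Tef* and *Rorb*). *Tef* had an r of -0.71 with *Hlf*, which encodes another factor of its own family (permutation p = 0.00176, adjusted p = 0.0898, rho = -0.72, permutation p = 0.00297, adjusted p = 0.134), which was -0.65 without the 2 libraries farthest from the median of *Tef*.

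A wider search asked which of all tested genes moved with *Dbp*, by adding its log2 CPM to the edgeR fit beside the groups. Of 15439 genes, 10 were called (0.0648%), 2 with a positive and 8 with a negative slope, and both positive ones were members. The slope was 0.43 ± 0.07 for *Nr1d2* and 0.43 ± 0.08 for *Bhlhe41*, in log2 units per log2 unit of *Dbp* (edgeR adjusted p = 0.0347 for each). For 7 of the 9 members tested the unadjusted p was under 0.05, against 5.50% of all genes, with slopes of 0.57 ± 0.15 for *Ciart*, 0.37 ± 0.11 for *Per3*, 0.34 ± 0.09 for *Per1*, 0.32 ± 0.11 for *Nr1d1* and -0.36 ± 0.08 for *Arntl* beside the 2 called. Without wt replicate 1 the unadjusted p was under 0.05 for 4 of the 9, and without both wt replicate 1 and Del/Dup replicate 2 for 2. *Dbp* is itself measured with error and shares the scaling of its library, so the slopes are descriptions of covariation.

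The 8 genes with a negative slope were *Dnajc3*, *Hspa5*, *Pdia4*, *Hsp90b1*, *Pdia6*, *Chordc1*, *Mmp14* and *Klhdc7a*. The first 5 encode chaperones and folding enzymes of the endoplasmic reticulum: *Hspa5* encodes BiP, *Hsp90b1* encodes GRP94, *Dnajc3* a co-chaperone of BiP, and *Pdia4* and *Pdia6* are protein disulfide isomerases. They were not on any list and were named because the test called them. The slope was -0.36 ± 0.05 for *Dnajc3* (edgeR adjusted p = 0.00508), -0.48 ± 0.07 for *Hspa5* (adjusted p = 0.0202), -0.39 ± 0.06 for *Pdia4* (adjusted p = 0.0220), -0.26 ± 0.05 for *Hsp90b1* (adjusted p = 0.0347) and -0.27 ± 0.05 for *Pdia6* (adjusted p = 0.0478).

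All 8 were at their highest of the 19 libraries in wt replicate 1. *Hspa5* stood at 514 CPM there, where the other 18 libraries lay between 293 and 370 CPM. *Dnajc3* stood at 39.4 CPM, against 28.0 to 35.0 CPM in the others, and *Pdia4* at 67.6 CPM, against 42.7 to 57.7. The highest of the others for these 3 genes was in each case Del/Dup replicate 2, the library with the next lowest *Dbp*, and the same held for 6 of the 8 genes, the exceptions being *Hsp90b1* and *Pdia6*. The calls did not survive leaving out wt replicate 1: edgeR then called 0 of 15410 genes, with 1007 at an unadjusted p under 0.05, and the adjusted p of the 10 genes lay between 0.712 and 0.768. The slopes of the 10 genes kept their signs, at 0.52 ± 0.13 for *Bhlhe41*, 0.24 ± 0.11 for *Nr1d2*, -0.30 ± 0.08 for *Dnajc3* and -0.25 ± 0.11 for *Hspa5*. The calls of *Nr1d2* and *Bhlhe41* were lost without other libraries too: over the 19 fits that each left out 1 library, edgeR called both in 5, 1 of them in 4 and neither in 10. Neither was called when wt replicate 5 was counted as Dup/+. Without both wt replicate 1 and Del/Dup replicate 2, 0 genes were called and 698 had an unadjusted p under 0.05, among them *Bhlhe41* (slope 0.61) and *Dnajc3* (slope -0.27).

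**Figure D5:**
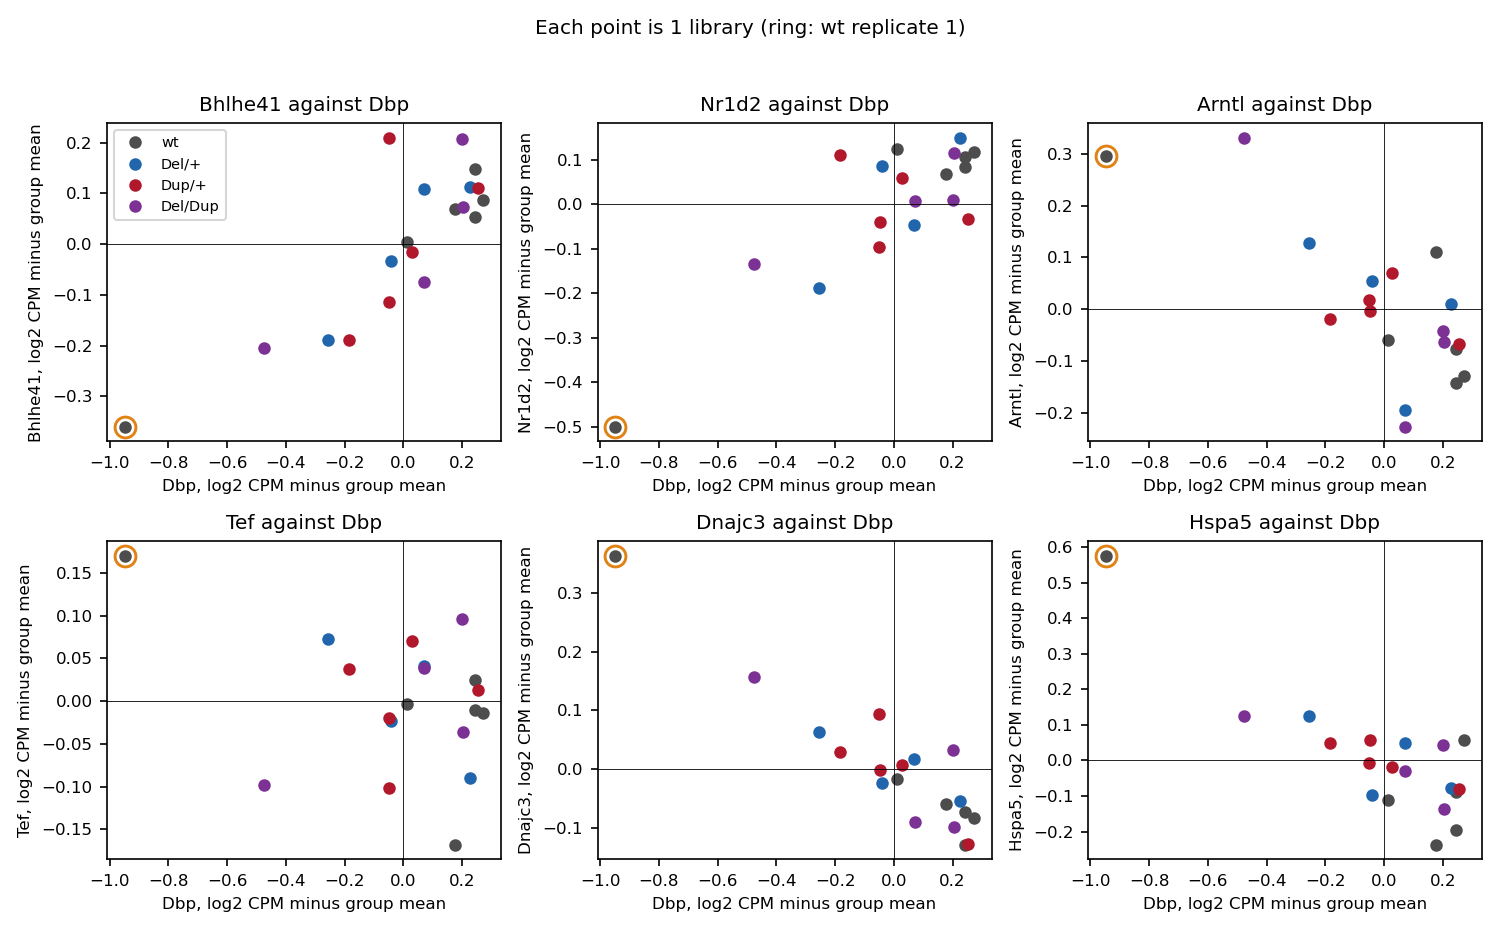
Deviation of log2 CPM from the group mean for *Dbp* (horizontal axis) against 4 clock genes and 2 chaperone genes (vertical axes), 1 point per library in the color of its group, with wt replicate 1 ringed. The ringed point is at -0.95 on the *Dbp* axis, *Bhlhe41* and *Nr1d2* are low there, and *Arntl*, *Tef*, *Dnajc3* and *Hspa5* are high.

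The same search with *Arntl* called 0 of 15439 genes (0%), with 962 at an unadjusted p under 0.05, among them 5 of the 9 members. The slope of *Dbp* on *Arntl* was -1.54 ± 0.34 (edgeR adjusted p = 0.526), and those of *Ciart*, *Bhlhe41*, *Nr1d2* and *Per3* were -0.93 ± 0.35, -0.63 ± 0.22, -0.62 ± 0.21 and -0.54 ± 0.26. All 9 slopes were negative, beside a median of -0.02 over all genes. Without wt replicate 1, 1630 genes had an unadjusted p under 0.05, among them 1 of the 9 members. Without the 2 libraries farthest from the median of *Arntl*, again wt replicate 1 and Del/Dup replicate 2, 0 of the 9 did. *Per1*, *Nr1d1* and *Per3* then had positive slopes of 0.31, 0.49 and 0.11.

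Ranked by r with *Dbp* among 10898 genes with a mean of at least 5 CPM, *Bhlhe41* was first and *Nr1d2* second from the top, *Ciart* stood at rank 25, *Per1* at 33, *Per3* at 48, *Nr1d1* at 156 and *Per2* at 558. *Arntl* was 26th from the bottom. Outside the members, the genes with the highest r included *Lmna* (0.83), *Tor1b* (0.80), *RGD1311345* (0.79), *Ccsap*, *Bdh1*, *Eml2*, *Kifc3*, *Nrarp* and *Pnma3* (each 0.75 or 0.76), and the 5 with the lowest were *Dnajc3* (-0.93), *Hsp90b1* (-0.87), *Hspa5* (-0.85), *Pdia6* and *Pdia4* (both -0.84). For *Arntl*, *Dbp* was 9th from the bottom. The 10 highest were *Drd1* (0.77), *Klhdc7a*, *Dnajc3*, *Serpinb9*, *Tgm2*, *Siae*, *Pcca*, *Phf21a*, *Mterf2* and AABR07055917.1, down to 0.73, and the 5 lowest were *Brf2* (-0.85), *Pus7*, *Cdc42ep4*, *Tcf3* and *Slc39a3*, up to -0.77. These are correlations over 19 libraries that share their scaling, given as a description. An r of at least 0.6 in size with *Dbp* was found for 6 of the 9 members and 2.04% of the 10898 genes, and with *Arntl* for 2 of the 9 and 2.19%. Without wt replicate 1, it was found with *Dbp* for 3 of the 9, *Bhlhe41* (0.76), *Arntl* (-0.67) and *Per3* (0.62), and with *Arntl* for 1 of the 9, beside 3.18% and 4.72% of the 10898 genes, while the r with *Dbp* was 0.52 for *Nr1d2*, 0.43 for *Per1*, 0.26 for *Ciart*, 0.12 for *Nr1d1* and 0.07 for *Per2*. *Lmna* was then at 0.62, *Dnajc3* at -0.80 and *Hspa5* at -0.51.

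The members were also set beside 5 library measures, namely the percentage of multi-mapped reads, the total count, the level of the choroid plexus gene *Ttr*, and the mean log2 CPM of the 10 immediate-early genes and of the 8 glucocorticoid targets. None of the 50 relations had an adjusted p under 0.05, the lowest being 0.196, and 6 had an unadjusted p under 0.05. With the immediate-early genes, which report recent neuronal activity, r was -0.72 for *Tef* (permutation p = 0.00392, rho = -0.69, permutation p = 0.00779). It was 0.65 for *Nr1d1* (permutation p = 0.0121, rho = 0.59, permutation p = 0.0177) and 0.55 for *Per1* (permutation p = 0.0356, rho = 0.55, permutation p = 0.0305). Without the 2 libraries farthest from the median of that list, wt replicate 5 and Del/+ replicate 2, these were -0.51, 0.36 and 0.26. Without wt replicate 1 they were -0.80, 0.77 and 0.61 (permutation p = 0.00198, 0.00346 and 0.0202). With the glucocorticoid targets, r was 0.60 for *Per1* (permutation p = 0.0177, rho = 0.56, permutation p = 0.0276) and 0.54 for *Ciart* (permutation p = 0.0263, rho = 0.39, permutation p = 0.131). Without the 2 libraries farthest from the median of that list, wt replicate 1 and Del/Dup replicate 3, it was 0.61 and 0.20. Without wt replicate 1 alone it was 0.44 and 0.31. With the percentage of multi-mapped reads, r was 0.45 for *Per1* (permutation p = 0.0445, rho = 0.59, permutation p = 0.0172). It was 0.45 without Del/+ replicates 2 and 4 and 0.50 without wt replicate 1. For the total count and *Ttr*, no member had an unadjusted p under 0.05.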

How the data were processed

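RNA-seq libraries from the hippocampus of 19 rats were analyzed. The authors aligned single-end reads with HISAT2 to the rat build rn6 and counted reads per Ensembl gene with HTSeq, and the deposited values are raw counts without normalization. Sources differ on the RNA selected: rRNA removal in the protocol label, polyA RNA in the molecule label and the paper. Summary lines (reads aligned to several places, without a gene or ambiguous) were left out of tests. Groups were taken from the labels, and nothing in them pairs animals.

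The clock genes and all lists were chosen with earlier results of these data known. Library sizes were adjusted with edgeR's TMM factors, and levels are CPM on the scaled size. Genes were filtered with filterByExpr and tested with edgeR 4.0.16 in R 4.3.3 (quasi-likelihood F test, all 19 libraries in 1 fit, 1 mean per group, prior count of 2), with SE derived from the F statistic, on 15440 genes. DESeq2 1.42.0 was an alternative, and FCROS, used in the study, was not run. The common biological coefficient of variation was 0.101, with a depth of 16191192 to 38760645 reads. The parts of spread between animals and of depth in the precision were not worked out per gene. The 37 pairs of libraries within a group differed with a chi-square of 3.46 to 56.0 per degree of freedom, so none was a duplicate. Correlations used deviations of log2 CPM from group means and 100000 permutations within groups (all permutations where fewer exist), in Python 3.11.15 with numpy 2.4.6. Single genes were named by these rules: the 10 members, other clock genes that were called or tied to a member, genes called with *Dbp* or *Arntl*, and the 10 highest and 5 lowest correlations with either, apart from items that are not reported here. The scripts were tested on simulated data. Leaving out each library, other scalings, filters, fits and label readings were tried.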

Additional observations from a re-analysis of the deposited data

Results flagged for a closer look

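In 3 of the 40 combinations of a clock gene and a genotype group, 1 library lay farther from the rest of its group than the 95% limit of Dixon's test allows, and all 3 were wt replicate 1. *Dbp* was at 42.0 CPM there, with the nearest of the other 5 wt libraries at 81.8 CPM, so the gap was 0.711 of the whole range. *Nr1d2* was at 66.8 CPM, with the nearest at 99.1 CPM (0.892 of the range), and *Bhlhe41* at 17.9 CPM, with the nearest at 23.0 CPM (0.679 of the range). By chance about 1 in 20 groups would pass it, and the 3 genes are correlated and come from the same library, so they are not 3 separate events. The cause was not tested.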

How the results depend on the processing

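Numbers of genes called over all tested genes moved by over 1.5 times in some fits. Between Del/+ and wt (119), DESeq2 gave 641, the libraries at or under 55% multi-mapped reads 299, the replicate block 72 and *Ttr* as a covariate 51. Between Dup/+ and wt (42), DESeq2 gave 77 and counting wt replicate 5 as Dup/+ gave 12. Between Del/Dup and wt (14), DESeq2 gave 179, library size alone 8, scaling by relative log expression 9, only the groups compared 3, the replicate block 7, a term for the multi-mapped share 3, *Ttr* 3 and wt replicate 5 as Dup/+ 57. Between Del/+ and Dup/+ (121), DESeq2 gave 262 and the multi-mapped term 51. For any difference among the 4 groups (127), DESeq2 gave 702, the multi-mapped term 79, the replicate block 76 and *Ttr* 68. For the association with *Dbp* (10), the libraries at or under 55% gave 1, library size alone 5, and 0 came from the replicate block, from wt replicate 5 as Dup/+ and from leaving out the 2 libraries farthest from the median of *Dbp*, an alternative chosen after seeing the data. For *Arntl* (0), the fit without a filter gave 2. Leaving out 1 library gave 46 to 337, 27 to 44, 2 to 216, 60 to 194, 61 to 416 and 0 to 13 genes in these comparisons (*Arntl* 0).

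Among the 10 clock genes, the calls between Del/+ and Dup/+ and among the 4 groups (0 each) became 1 with DESeq2 and with the multi-mapped term, and between Del/+ and Dup/+ also in the libraries at or under 55%, and 0 to 1 when leaving out a library. Each was *Per2*. The 2 called with *Dbp* became 0 in the libraries at or under 55%, with the replicate block, with wt replicate 5 as Dup/+ and without the 2 farthest libraries, and 0 to 2 when leaving out a library. The 2 pairs of correlated members became 0 with Spearman's rho, in the libraries at or under and over 55%, with wt replicate 5 as Dup/+ and without the 2 farthest libraries, and 0 to 2 when leaving out a library. The replicate block gave 2, and so did the group means not removed, though the pair of *Tef* and *Nr1d1* was then replaced by that of *Dbp* and *Arntl*. With the block, the adjusted p between Del/+ and Dup/+ was 0.0697 for *Rora*, no longer a call, and 0.111 for *Per2*. Replicate numbers do not pair the animals: same-numbered libraries of different groups had correlated deviations with r from -0.17 to 0.12, over 0.1 in 2 of 24 pairs.

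Of 1683 fold changes and slopes under alternatives, 117 changed sign, 107 of them between values within 1 SE of 0. The other 10 were *Per2* in Del/Dup with the multi-mapped term (-0.17, which rests on Del/+ replicate 4 alone, the only library that separates the term from the groups), *Per2* in Del/+ when leaving out a library (-0.14 to 0.0112, the latter without Del/+ replicate 4), the slope of *Tef* on *Dbp* when leaving out a library (-0.16 to 0.0501, the latter without wt replicate 1), and slopes on *Arntl*. Those of *Per1* (-0.43 to 0.0698), *Nr1d1* (-0.33 to 0.32) and *Tef* (-0.24 to 0.16) changed when leaving out a library, those of *Per1* (0.31), *Per3* (0.11) and *Nr1d1* (0.49) without the 2 farthest libraries, and that of *Tef* in the libraries at or under 55% (0.24). The cause was not tested. The SE of the members' log2 fold changes, 0.05 to 0.18 with 4 to 6 libraries per group, limits what could be called.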
